A study of Chlorocebus sabaeus with 6 samples.

Results

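The genes described here make, sense, take up, move and export cholesterol: 31 of the 18050 genes in the deposited expression table of COS7 cells. They were chosen by gene symbol and all 31 had a row. By role they are 18 enzymes of the mevalonate and sterol pathway and 5 genes of SREBP, a sterol-regulated transcription factor, and its control. The others are 2 genes of lipoprotein uptake, 4 of intracellular transport and esterification, and 2 of efflux. COS7 is an SV40-transformed, fibroblast-like line from African green monkey (Chlorocebus sabaeus) kidney. RNA of 3 wild-type samples (WT) was compared with RNA of 3 samples labelled as a knockout of ATL2 and ATL3 (DKO), which encode atlastins, enzymes that join membranes of the endoplasmic reticulum (ER). All 6 samples were COS7 cells, grown in the same serum-containing medium per the labels. The labels give neither the number of knockout clones nor whether the samples of a genotype were separate cultures, so p-values measure only how far these samples differ, and that spread may be technical.

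Cholesterol is made from acetyl-CoA in the cytosol and ER. The mevalonate part of the pathway ends in farnesyl diphosphate, which is shared with protein prenylation, dolichol and ubiquinone, and squalene synthase commits it to sterols. SREBP2, the product of SREBF2, is held in the ER membrane with SCAP. When ER cholesterol is high, the INSIG proteins retain this complex. When it is low, SCAP carries SREBP2 to the Golgi for cleavage, and the released factor drives most genes of the pathway. The liver X receptors (LXR) respond to oxysterols in the opposite sense and drive the exporters ABCA1 and ABCG1 and the receptor-degrading ligase MYLIP.

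The libraries held 14197344 to 15693049 estimated counts. ATL2 and ATL3 were lower in all 3 DKO samples than in any WT sample, at 5.94 ± 1.9 against 30.6 ± 1.5 FPKM and 4.88 ± 1.25 against 35.8 ± 1.36 FPKM (SD, n = 3 each). FPKM is a count of fragments scaled to transcript length and library size. DKO replicate 3 stood apart from the other DKO samples on the second principal component (9.41% of the variance), and values without it are given below. In a chi-square of counts per gene, DKO replicates 1 and 2 differed by 1.53 and WT pairs by 1.82 to 3.51. DKO replicate 3 differed from DKO replicates 1 and 2 by 75.2 and 80. P-values without DKO replicate 3 are thus set against the small spread of the remaining samples, which may be technical. Of 9 fibroblast markers in the table, VIM was abundant (1260 to 1551 FPKM over the 6 samples), whereas THY1 had 0 counts in all 6 and COL1A2 and DCN had at most 2 in any. The summed level of these 9 genes was 3360 to 3451 FPKM in WT and 1511 to 1562 in DKO. The kidney markers LHX1, EMX2, PAX8 and PAX2 summed to 131 to 136 FPKM in WT and 28.9 to 33.5 in DKO. PAX2 went the other way, from 0.02 ± 0.02 to 0.163 ± 0.0462 FPKM (SD, n = 3 each), with at most 11 counts in any library. Most of the fibroblast sum other than VIM was FN1, at 1840 ± 57.1 FPKM in WT and 207 ± 21.8 in DKO, and PDGFRB rose from 0.587 ± 0.0513 to 5.35 ± 0.743 (SD, n = 3 each). Epithelial markers summed to 661 to 754 FPKM in WT and 528 to 689 in DKO, mostly KRT8 and KRT18, while CDH1 fell to 1.79% of WT and EPCAM and KRT19 rose 2.47-fold and 4.79-fold. Summed blood and endothelial markers were at 14.6 to 16.7 FPKM in WT and 14.3 to 15.9 in DKO, mostly CD68. Among them PTPRC had 14, 8 and 9 counts in the WT libraries and 0, 0 and 1 in the DKO libraries. The part of these differences in cell identity in the sterol gene results was not tested.

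Most sterol genes called different were lower in DKO. Differences below are log2 fold changes of DKO over WT from edgeR unless another scale is named, and levels are FPKM. By edgeR at an adjusted p below 0.05, 13 of the 31 were lower, 3 were higher and 15 were not called. Among all 13094 genes tested, 22.2% were lower, 23.3% higher and 45.5% called in either direction. So the share called among the sterol genes, 51.6%, was near that of all genes, while the share called lower, 41.9%, was above it. Their median log2 fold change was -0.57, against -0.01 for all genes tested. The members and the neighbouring lists were chosen with earlier results of these data known. Comparisons with all genes therefore describe these lists and are no independent test. The 3 DKO samples all lay below the 3 WT samples for 18 members and all above for 5, where these shares were 34.1% and 29.1% of all genes tested. Without DKO replicate 3, 20 members were lower and 5 higher, against backgrounds of 38.6% and 36%. In bulk RNA, a lower level in every cell and a lower share of cells with the transcript cannot be told apart. An exact two-sided permutation test of a single gene cannot go below p = 0.1 with 3 samples against 3.

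**Figure D1:**
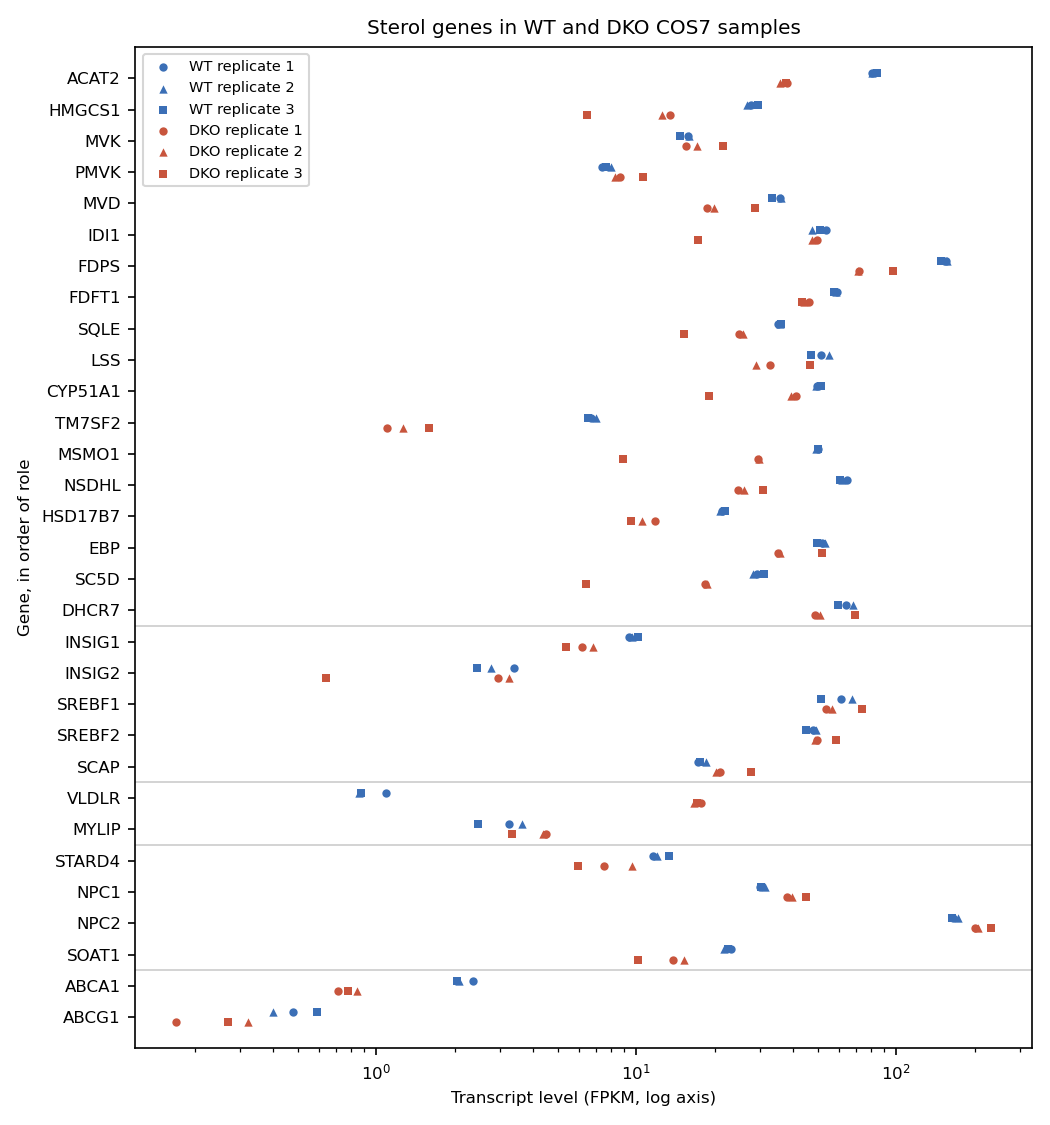
Transcript level of each sterol gene in FPKM (log axis) in the 3 WT samples (blue) and 3 DKO samples (red), with 1 marker shape per replicate and grey lines between roles. DKO lies below WT for 18 genes and above for 5. VLDLR shows the widest gap, from 0.86 to 1.09 FPKM in WT to 16.6 to 17.8 in DKO.

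The synthesis enzymes were lower or not called. Of the 18, 8 were lower, 0 higher and 10 not called, with a median log2 fold change of -0.63 and 16 negative values. Of the 7 enzymes that lead to farnesyl diphosphate 3 were lower, and of the 11 from squalene onward 5 were lower. Without DKO replicate 3 these counts were 4 of 7 and 11 of 11, and 15 of 18 in all. Over all genes the share called lower also went up, from 22.2% to 38.6%, when that library was left out. SC5D, MVD and MSMO1 lay just outside the threshold with all samples (edgeR adjusted p = 0.052, 0.054 and 0.057), and DESeq2 called all 3 lower (adjusted p = 0.01, 0.0205 and 0.00828).

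The entry into the pathway fell. ACAT2, the cytosolic thiolase that joins acetyl-CoA units, had 80.5, 80.5 and 84.1 FPKM in WT and 37.9, 35.7 and 37.7 in DKO. The DKO samples lay close together at 45.4% of the WT mean, or -1.09 on the log2 scale (SE 0.10, edgeR adjusted p = 0.00021). HMGCS1, the synthase that makes HMG-CoA, had 27.6, 26.6 and 29.4 FPKM in WT and 13.5, 12.5 and 6.48 in DKO. It fell in all 3 DKO samples, most in replicate 3 (-1.34, SE 0.24, edgeR adjusted p = 0.004, and -1.10 without that sample).

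The mevalonate kinases were not called. MVK, mevalonate kinase, had 14.8 to 15.9 FPKM in WT and 15.6, 17.1 and 21.5 in DKO (0.27, edgeR adjusted p = 0.22). PMVK, which adds the next phosphate, had 7.38 to 7.99 FPKM in WT and 8.66, 8.27 and 10.6 in DKO (0.31, edgeR adjusted p = 0.15). Neither was called, and on log2(FPKM + 1) the limma 95% intervals of the difference were -0.12 to 0.52 and -0.06 to 0.51. They are the only 2 of the 18 enzymes with a positive fold change.

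MVD, which decarboxylates mevalonate diphosphate, had 33.2 to 35.9 FPKM in WT and 18.6, 19.98 and 28.7 in DKO (-0.59, SE 0.21). All DKO samples lay below WT, with replicate 3 nearest to it. The limma 95% interval of the difference on log2(FPKM + 1) was -1.04 to -0.24. MVD was called in the fits with other normalizations, without a filter, with limma and with DESeq2 (adjusted p = 0.0201 to 0.0431), and without DKO replicate 3 at -0.87 (edgeR adjusted p = 1.3e-15). It was not called in the other 5 fits that leave out a sample (edgeR adjusted p = 0.111 to 0.136). IDI1, the isopentenyl diphosphate isomerase, overlapped between genotypes, with 47.2 to 53.6 FPKM in WT, 49.7 and 47.6 in DKO replicates 1 and 2, and 17.3 in replicate 3 (-0.38, edgeR adjusted p = 0.37; -0.07 without replicate 3; limma 95% interval -1.46 to 0.40 on log2(FPKM + 1)). FDPS, farnesyl diphosphate synthase, had 155, 157 and 149 FPKM in WT and 72.1, 71.1 and 97.2 in DKO. FDPS fell to 52.1% of the WT mean (-0.88, SE 0.17, edgeR adjusted p = 0.0057) and was the most abundant of the 18 enzymes in both genotypes.

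The genes of squalene formation and oxidation fell. FDFT1, squalene synthase, had 57.5 to 59.2 FPKM in WT and 43.6 to 46.4 in DKO, 76.6% of WT (-0.34, SE 0.09, edgeR adjusted p = 0.02). SQLE, squalene epoxidase, had 35.2 to 36.0 FPKM in WT and 24.9, 25.8 and 15.2 in DKO (-0.66, SE 0.18, edgeR adjusted p = 0.022). Neither gene overlapped between the genotypes. SQLE was not called without WT replicate 1, 2 or 3 (edgeR adjusted p = 0.066, 0.07 and 0.072), and FDFT1 was called in only 1 of the 6 fits that leave out a sample, that without DKO replicate 3 (edgeR adjusted p = 0.051 to 0.099 in the others). LSS, lanosterol synthase, had 47.1 to 55.3 FPKM in WT and 32.6, 28.9 and 46.6 in DKO and was not called (-0.44, edgeR adjusted p = 0.15). Its limma 95% interval on log2(FPKM + 1) was -0.96 to -0.08. LSS was called at -0.74 without DKO replicate 3 (edgeR adjusted p = 4.9e-15).

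The steps from lanosterol on held the steepest decrease among the 18 enzymes. TM7SF2, a sterol C14 reductase of the ER membrane, had 6.68, 6.99 and 6.51 FPKM in WT and 1.10, 1.27 and 1.60 in DKO. That is 19.7% of WT (-2.29, SE 0.20, edgeR adjusted p = 0.00015), from 445 counts over the WT samples and 87 over the DKO samples, with an exact 95% counting interval of the remaining share of 15.7 to 25.1%. It was the least abundant of the 18 enzymes in both genotypes. NSDHL, which with MSMO1 and HSD17B7 removes the C4 methyl groups, had 64.9, 61.8 and 60.8 FPKM in WT and 24.6, 25.9 and 30.8 in DKO (-1.16, SE 0.14, edgeR adjusted p = 0.00073). HSD17B7, the 3-keto reductase of the same complex, had 21.4, 21.1 and 22.04 FPKM in WT and 11.9, 10.5 and 9.51 in DKO (-0.98, SE 0.12, edgeR adjusted p = 0.00055). These 3 genes were called in all 6 fits that leave out a sample.

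MSMO1, the C4 methyl oxidase that acts before NSDHL, had 49.4 to 50.2 FPKM in WT and 29.4, 29.6 and 8.93 in DKO (-1.14, SE 0.41). Every DKO sample lay below WT, and replicate 3 lay far below the other 2. SC5D, the C5 desaturase, had 28.02 to 30.9 FPKM in WT and 18.4, 18.6 and 6.41 in DKO (-0.99, SE 0.35). CYP51A1, lanosterol demethylase, had 49.0 to 51.5 FPKM in WT and 41.0, 39.3 and 19.0 in DKO (-0.57, SE 0.27, edgeR adjusted p = 0.13). With all samples edgeR called none of the 3, while DESeq2 called MSMO1 and SC5D, as given above. On log2(FPKM + 1) the limma 95% intervals were -2.32 to -0.24 for MSMO1, -2.01 to -0.19 for SC5D and -1.34 to 0.03 for CYP51A1. Without DKO replicate 3 all 3 were called, at smaller log2 fold changes of -0.76, -0.66 and -0.29 (edgeR adjusted p = 1.2e-16, 3e-12 and 2.7e-06).

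The isomerase EBP and the final reductase DHCR7 overlapped between genotypes. EBP had 49.7 to 53.1 FPKM in WT and 35.0, 35.7 and 51.8 in DKO (-0.29, edgeR adjusted p = 0.26). DHCR7, which makes cholesterol from 7-dehydrocholesterol, had 59.6 to 68.1 FPKM in WT and 48.7, 51.1 and 69.6 in DKO (-0.13, edgeR adjusted p = 0.60). In both, DKO replicates 1 and 2 lay below every WT sample and replicate 3 did not. On log2(FPKM + 1) the limma 95% intervals of the difference were -0.74 to 0.03 for EBP and -0.55 to 0.17 for DHCR7. Without replicate 3 both were called, at -0.54 and -0.35 (edgeR adjusted p = 9.6e-11 and 6.4e-08).

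**Figure D2:**
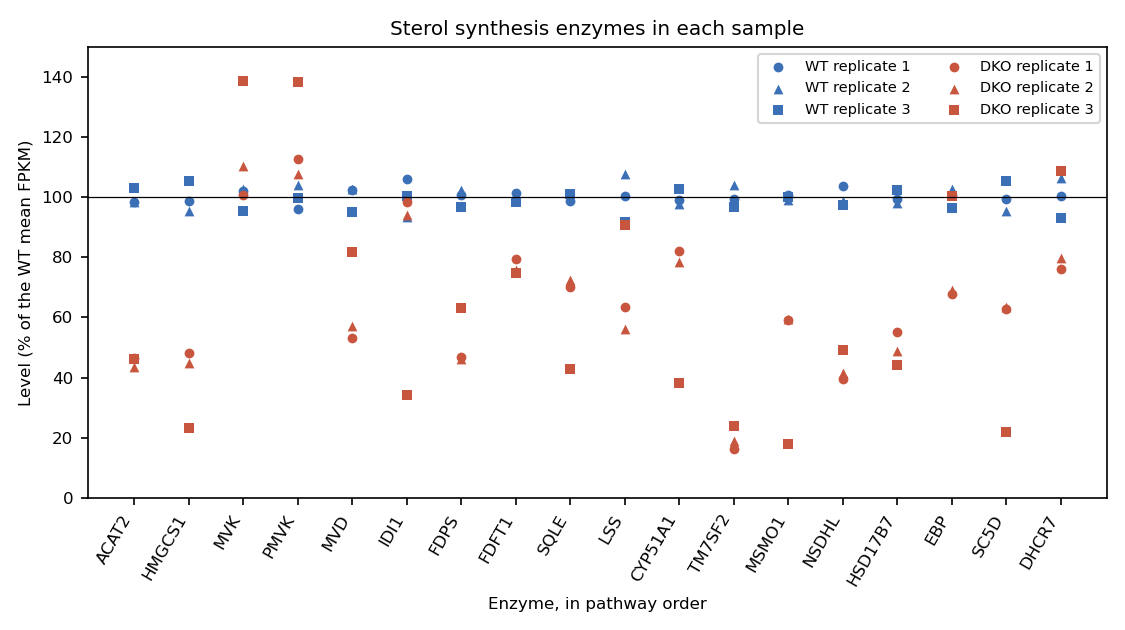
Level of the 18 synthesis enzymes in each sample as a percentage of the WT mean FPKM, in pathway order, with blue markers for WT and red for DKO and 1 shape per replicate. DKO replicates 1 and 2 lie together, whereas replicate 3 (squares) is under 0.75 times their mean for MSMO1, SC5D, IDI1, CYP51A1, HMGCS1 and SQLE and over 1.25 times it for LSS, MVD, EBP, DHCR7, FDPS, TM7SF2, MVK and PMVK.

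The enzymes differed in how the DKO samples spread. Between DKO replicates 1 and 2 no enzyme differed by more than 1.15 times, and between WT samples by no more than 1.17 times. DKO replicate 3 was under 0.75 times the mean of replicates 1 and 2 for 6 enzymes: MSMO1 (0.303), SC5D (0.346), IDI1 (0.356), CYP51A1 (0.474), HMGCS1 (0.499) and SQLE (0.600). It was over 1.25 times that mean for 8: LSS (1.52), MVD (1.48), EBP (1.47), DHCR7 (1.40), FDPS (1.36), TM7SF2 (1.35), MVK (1.31) and PMVK (1.26). Among 12830 tested genes with FPKM above 0 in DKO replicate 1 or 2, 31.6% were under 0.75 and 26.5% over 1.25, so a spread of this kind was common in that library. Its cause was not tested.

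Summed over the 18 enzymes these opposite shifts cancelled. The sum was 860, 858 and 840 FPKM in WT and 530, 523 and 522 in DKO, or 853 ± 10.9 against 525 ± 4.21 (SD, n = 3 each). Each DKO sample thus held 61.3 to 62.2% of the WT mean. FDPS is the largest part of the sum, and without it the sums were 691 to 705 FPKM in WT and 425 to 458 in DKO. By level, FDPS, ACAT2 and DHCR7 led in WT and FDPS, DHCR7 and FDFT1 in DKO, with ACAT2 in the sixth place and NSDHL moving from the fourth to the ninth. PMVK and TM7SF2 were the lowest in both.

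Of the SREBP regulation genes, 1 of 5 was called: INSIG1, which fell. That is 20%, beside 45.5% of all genes tested. SREBF2 had 45.1 to 48.9 FPKM in WT and 49.8, 48.8 and 58.5 in DKO (0.19, SE 0.12, edgeR adjusted p = 0.23). SREBF1, which encodes the SREBP1 proteins that favour fatty acid genes, had 51.2 to 67.4 FPKM in WT and 53.8, 56.8 and 73.7 in DKO (0.07, SE 0.17, edgeR adjusted p = 0.76). The genotypes overlapped for both, and the limma 95% intervals of the difference on log2(FPKM + 1) were -0.10 to 0.38 and -0.35 to 0.41. SCAP, the escort protein, had 17.3 to 18.6 FPKM in WT and 21.0, 20.2 and 27.7 in DKO. All DKO samples lay above WT, but SCAP was not called (0.41, SE 0.16, edgeR adjusted p = 0.077). It was called at 0.21 without DKO replicate 3 (edgeR adjusted p = 0.0008). With all samples the limma 95% interval for SCAP on log2(FPKM + 1) was 0.01 to 0.66.

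INSIG1, the ER retention protein whose gene is itself driven by SREBP, had 9.34, 9.61 and 10.1 FPKM in WT and 6.18, 6.80 and 5.38 in DKO. It fell to 63.1% of WT in FPKM, and by a log2 fold change of -0.81 in the counts (SE 0.22, edgeR adjusted p = 0.021). The 2 scales part in DKO replicate 3, which had 156 counts against 254 and 261 in DKO replicates 1 and 2. The transcript length that the deposited counts and FPKM values imply for INSIG1 was 1.85 kb in that library and 2.70 to 2.89 kb in the other 5. INSIG1 was not called without WT replicate 1, 2 or 3 (edgeR adjusted p = 0.056, 0.068 and 0.074). INSIG2, its SREBP-independent relative, had 2.43 to 3.40 FPKM in WT, 2.93 and 3.23 in DKO replicates 1 and 2 and 0.64 in replicate 3 (-0.42, edgeR adjusted p = 0.52). Its limma 95% interval on log2(FPKM + 1) was -1.23 to 0.52, and without that library its log2 fold change was 0.01.

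Lipoprotein uptake held the largest change of the members. VLDLR, a receptor for triglyceride-rich lipoproteins and for reelin, had 1.09, 0.86 and 0.87 FPKM in WT and 17.8, 16.6 and 17.1 in DKO. The DKO samples lay within a narrow range 18.3 times above WT (4.2, SE 0.15, edgeR adjusted p = 6e-06), and leaving out any sample moved the log2 fold change only between 4.12 and 4.32. The estimated counts of VLDLR were not whole numbers in 4 of the 6 libraries. MYLIP, the ubiquitin ligase that sends lipoprotein receptors to degradation, had 2.46 to 3.63 FPKM in WT and 4.51, 4.38 and 3.32 in DKO. It overlapped and was not called (0.43, SE 0.19, edgeR adjusted p = 0.10). MYLIP was called at 0.53 without DKO replicate 3 (edgeR adjusted p = 0.00021). Its limma 95% interval with all samples was -0.06 to 0.67 on log2(FPKM + 1).

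All 4 transport and esterification genes were called, 2 higher and 2 lower. Among all genes tested 45.5% were called, 23.3% higher and 22.2% lower. NPC2, the soluble lysosomal protein that binds cholesterol, had 166, 173 and 164 FPKM in WT and 202, 207 and 232 in DKO. NPC1, the lysosomal membrane protein that receives it, had 30.0, 31.3 and 30.3 FPKM in WT and 38.2, 39.7 and 44.9 in DKO. Both rose without overlap, to 127% and 134% of WT (0.42, SE 0.13, and 0.46, SE 0.11; edgeR adjusted p = 0.037 and 0.014). Neither was called without WT replicate 1, 2 or 3, at adjusted p-values of 0.12, 0.093 and 0.13 for NPC2 and 0.069, 0.053 and 0.065 for NPC1 by edgeR.

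STARD4, a cytosolic sterol carrier and SREBP2 target, had 11.6, 11.99 and 13.4 FPKM in WT and 7.51, 9.66 and 5.99 in DKO (-0.63, SE 0.17, edgeR adjusted p = 0.02). SOAT1, which esterifies cholesterol in the ER for storage, had 23.1, 21.7 and 22.6 FPKM in WT and 13.9, 15.2 and 10.1 in DKO (-0.82, SE 0.16, edgeR adjusted p = 0.0049). Both fell in every DKO sample. SOAT1 stayed called in all 6 fits that leave out a sample, and STARD4 only in those without DKO replicate 2 or 3. Its edgeR adjusted p was 0.055, 0.06 and 0.083 without WT replicates 1, 2 and 3 and 0.062 without DKO replicate 1.

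Both exporters were low in WT and lower in DKO. With all samples both were called lower, beside 22.2% of all genes tested, and the call of ABCG1 varied with the fit. ABCA1, which loads cholesterol onto apolipoprotein A-I, had 2.36, 2.09 and 2.05 FPKM in WT and 0.71, 0.84 and 0.78 in DKO. It fell to 35.8% of WT with no overlap (-1.48, SE 0.13, edgeR adjusted p = 0.00015), and was called in all 6 fits that leave out a sample. ABCG1, which exports sterols to high-density lipoprotein, was counted 20, 17 and 25 times in the WT libraries and 7, 12 and 12 times in the DKO libraries. At 0.49 ± 0.0954 against 0.253 ± 0.0764 FPKM (SD, n = 3 each) it fell by 0.93 on the log2 scale (SE 0.28, edgeR adjusted p = 0.033). Its summed counts put DKO at 51% of WT with an exact 95% counting interval of 32 to 79.7%. ABCG1 was not called without WT replicate 1 (edgeR adjusted p = 0.085), WT replicate 3 (0.12) or DKO replicate 1 (0.09), nor by DESeq2 (adjusted p = 0.12).

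**Figure D3:**
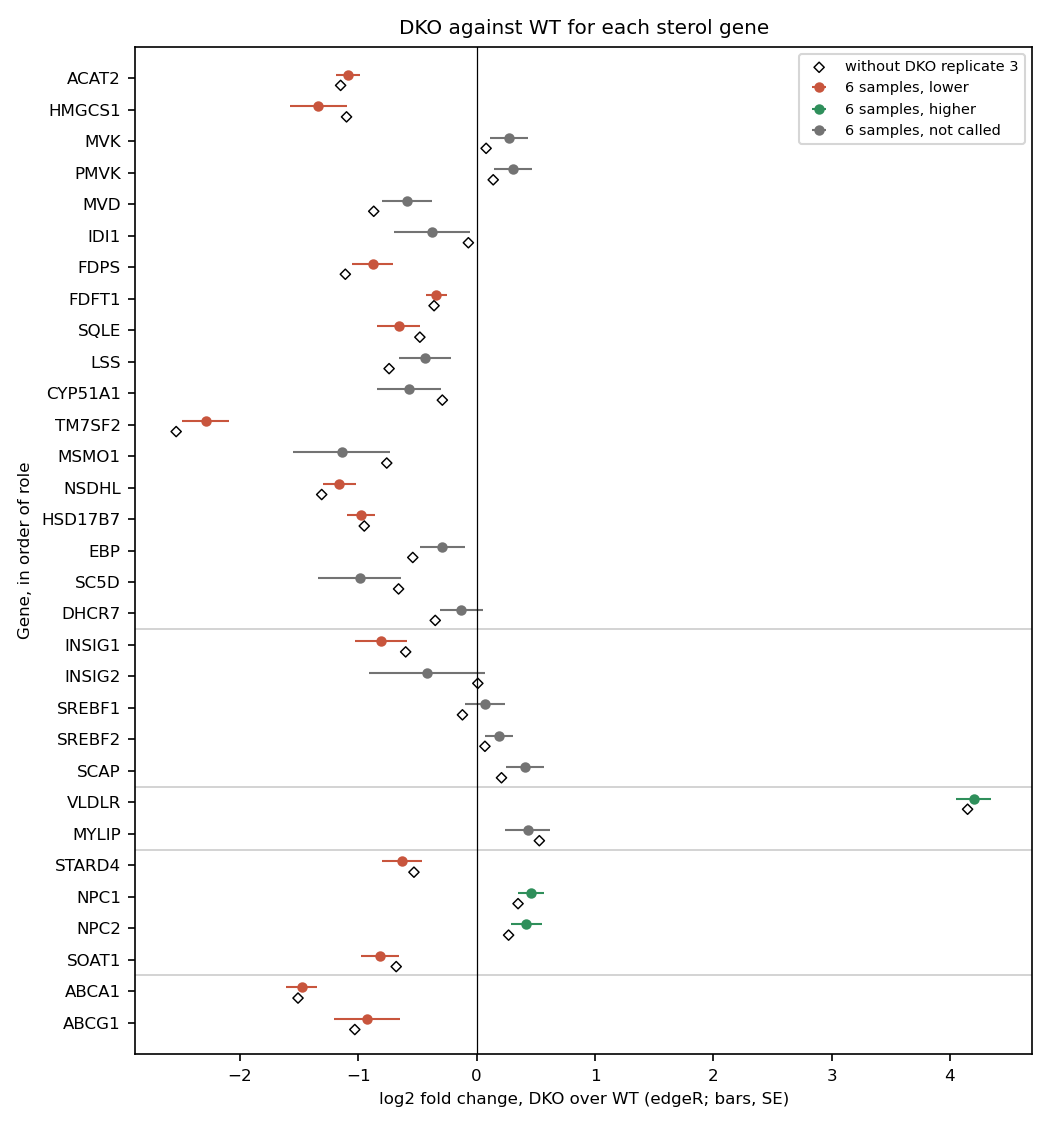
Log2 fold change of each sterol gene, DKO over WT (edgeR), with its SE, in red where called lower, green where called higher and grey where not called, and as open diamonds the value without DKO replicate 3. The 13 red genes include ABCA1 at -1.48 and TM7SF2 at -2.29, and VLDLR stands at 4.2.

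Of the nuclear receptors that drive these exporters, NR1H3 fell. NR1H3, which encodes LXR alpha, was counted 16, 14 and 15 times in the WT libraries and 0, 0 and 1 times in the DKO libraries, 2.27% of WT with an exact 95% counting interval of 0.0561 to 13.3% (edgeR adjusted p = 0.00054). NR1H2, which encodes LXR beta, was far more abundant at 33.6 ± 2.93 FPKM (WT) and 36.9 ± 7.21 FPKM (DKO; SD, n = 3 each) and was not called (0.19, edgeR adjusted p = 0.44). Of the LXR and oxysterol list, 9 genes had a row and 6 were tested: 2 were lower, NR1H3 and the oxysterol hydroxylase gene CYP39A1 (-2.63, SE 0.26, from 196 counts in WT to 30 in DKO), 0 higher and 4 not called, with a median log2 fold change of -0.09. The share called, 33.3%, was below the 45.5% of all genes. CH25H, CYP27A1 and CYP46A1, which make oxysterols, had at most 3 counts in any library and were not tested.

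Other enzymes of sterol synthesis and their redox partners were called at a share near that of all genes. Of 8 tested, 3 were higher, 1 lower and 4 not called (median 0.20), or 50% called against 45.5%. The lower gene was LBR, the inner nuclear membrane protein that carries out the same C14 reduction as TM7SF2. LBR had 14.9, 14.3 and 15.1 FPKM in WT and 5.96, 6.69 and 2.51 in DKO (-1.52, SE 0.31, edgeR adjusted p = 0.0067). Both C14 reductase genes were thus lower in every DKO sample. CYB5R3, the cytochrome b5 reductase that supplies electrons to desaturases and demethylases, rose from 113 ± 6.37 to 190 ± 29.8 FPKM (0.80, SE 0.15). FAXDC2 (0.75, SE 0.14) and the sterol-binding gene TMEM97 (0.46, SE 0.15) also rose, with edgeR adjusted p-values of these 3 between 0.0049 and 0.037. TMEM97 was not called without WT replicate 1, 2 or 3 or DKO replicate 1 (edgeR adjusted p = 0.11, 0.0899, 0.149 and 0.0563).

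Among genes that use or extend farnesyl diphosphate, both directions were found. Of 14 tested in this isoprenoid branch, 6 were higher, 2 lower and 6 not called (median 0.20), beside 23.3% higher and 22.2% lower among all genes. Leaving out DKO replicate 3 gave 10 higher and 3 lower, beside 36% and 38.6% of all genes. FNTB, the beta subunit of protein farnesyltransferase, rose from 11.2 ± 0.247 to 21.2 ± 2.33 FPKM (0.97, SE 0.14, edgeR adjusted p = 0.0012). RABGGTB, the beta subunit of the Rab prenyltransferase, rose from 26.6 ± 0.672 to 50.7 ± 14.8 (0.97, SE 0.19), and NUS1, a subunit of the dolichol-making cis-prenyltransferase, from 26.8 ± 1.40 to 54.1 ± 18 (1.04, SE 0.23). GGPS1, which makes geranylgeranyl diphosphate, fell from 45.2 ± 3.46 to 23.4 ± 6.07 FPKM (-0.91, SE 0.18, edgeR adjusted p = 0.0053). The SDs are over 3 samples a group.

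The machinery that cleaves SREBP or degrades sterol-regulated proteins was called at about the share of all genes. Of 9 tested genes 1 was higher, 3 lower and 5 not called (median -0.06), or 44.4% called against 45.5% of all genes. Without DKO replicate 3 these were 3 higher and 3 lower, where 36% and 38.6% of all genes were called. MBTPS1, the site-1 protease that makes the initial cut in SREBP, fell from 39.3 ± 0.226 to 28.6 ± 0.726 FPKM (-0.41, SE 0.09, edgeR adjusted p = 0.009; 0.052 without WT replicate 1). MBTPS2, the site-2 protease, was at 9.96 ± 0.633 and 9.33 ± 2.67 FPKM and not called (-0.06, edgeR adjusted p = 0.82). ERLIN2, an ER scaffold of sterol-dependent degradation, rose from 15.6 ± 0.698 to 29.6 ± 0.802 FPKM (0.98, SE 0.12, edgeR adjusted p = 0.00057). UBE2G2, a ubiquitin-conjugating enzyme of ER-associated degradation, fell by 0.44 on the log2 scale (SE 0.13, edgeR adjusted p = 0.026), and was not called without WT replicate 1, 2 or 3 or DKO replicate 1 (0.083, 0.0726, 0.104 and 0.0629). SEC24C, a coat protein of the vesicles that leave the ER, fell from 42.4 ± 0.451 to 29.2 ± 4.4 FPKM (-0.50, SE 0.14, edgeR adjusted p = 0.026), and was called in only 1 of the 6 fits that leave out a sample, that without DKO replicate 3 (edgeR adjusted p = 0.0696 to 0.0853 in the others).

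In the list of other uptake genes, 2 more lipoprotein receptors rose. Of 13 tested genes of uptake, transport and esterification 4 were higher, 2 lower and 7 not called (median -0.01), or 46.2% called against 45.5% of all genes. With DKO replicate 3 left out these were 6 higher and 7 lower, where 36% and 38.6% of all genes were called. SCARB1, the receptor for selective uptake from high-density lipoprotein, rose from 50.1 ± 2.82 to 96.7 ± 18.4 FPKM (1.02, SE 0.16, edgeR adjusted p = 0.0021). LRP8, the close relative of VLDLR, rose from 22 ± 1.11 to 35.4 ± 2.66 FPKM (0.64, SE 0.12, edgeR adjusted p = 0.0039). Of the ER sterol transfer genes of the GRAMD1 family, GRAMD1B rose by 0.84 (SE 0.16), and GRAMD1A was not called (-0.03). GRAMD1C had 13 to 19 counts in each WT library and 0 in every DKO library, at least 5.34-fold lower against a floor of 3 counts per library.

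Among fatty acid genes driven by SREBP, most calls were lower. Of 10 tested, which include INSIG1 and SREBF1, 5 were lower, 1 higher and 4 not called (median -0.56), beside 22.2% lower and 23.3% higher among all genes. Leaving out DKO replicate 3 gave 8 lower and 1 higher, beside 38.6% and 36%. ACLY, which makes cytosolic acetyl-CoA from citrate, fell from 136 ± 1.79 to 71.2 ± 4.27 FPKM (-0.89, SE 0.10, edgeR adjusted p = 0.00039). The desaturase gene SCD fell from 138 ± 7.96 to 77.0 ± 8.63 (-0.81, SE 0.10) and FADS2 from 1.14 ± 0.0513 to 0.443 ± 0.15 (-1.33, SE 0.27). The gene called higher was FADS1 (0.67, SE 0.19, edgeR adjusted p = 0.023; 0.0773 without WT replicate 1 and 0.0948 without WT replicate 3). With all samples the genes not called were FASN, ACACA, ACSS2 and SREBF1. FASN was at 57.3 ± 8.28 FPKM in WT and 55.7 ± 10.6 in DKO (0.00, edgeR adjusted p = 0.99). ACACA and ACSS2 had log2 fold changes of -0.22 and -0.53 (edgeR adjusted p = 0.15 and 0.063). All SDs are over 3 samples a group.

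**Figure D4:**
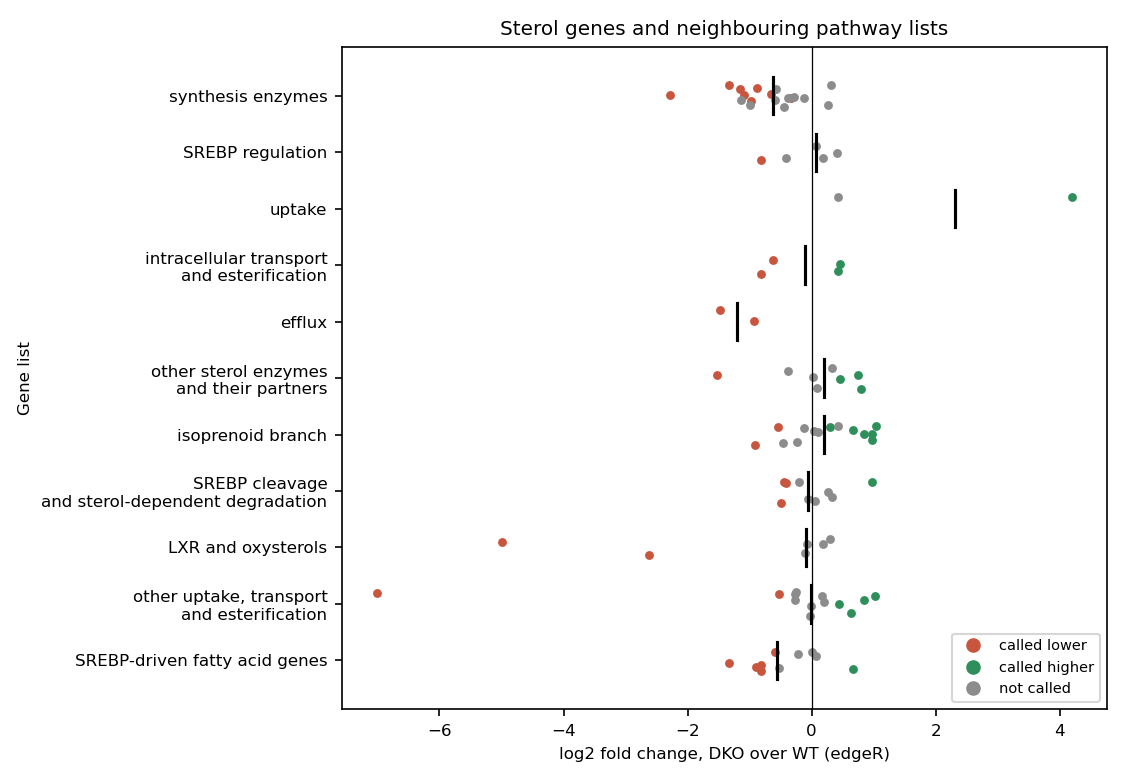
Log2 fold changes (DKO over WT, edgeR) of the tested genes in the 5 roles of the sterol genes and in 6 neighbouring lists, coloured by call, with the median of each as a black bar; vertical spread within a row is only to separate points. The medians lie at -0.63 for the synthesis enzymes and -0.56 for the fatty acid genes, and between -0.09 and 0.20 for the other 5 neighbouring lists. The fitted values of NR1H3 and of GRAMD1C, which is the point farthest to the left, rest on 1 and 0 counts in DKO and depend on the prior count.

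Some of these genes overlap others in the genome. All 31 sterol genes were found by gene ID in RefSeq (assembly mChlSab1.0.hap1), where 10 overlap another gene. The partners of VLDLR, ABCA1, SOAT1, FDPS, NPC2, IDI1 and SCAP are loci for which no fold change was available. ACAT2 overlaps TCP1, which fell (-0.46, edgeR adjusted p = 0.011; 0.0505 without WT replicate 1 and 0.0552 without WT replicate 3), and the estimated counts of ACAT2 were not whole in any of the 6 libraries. NPC1 overlaps RMC1, which rose by 0.54 (edgeR adjusted p = 0.0036), and TM7SF2 overlaps VPS51, which was not called (0.00, edgeR adjusted p = 0.99; called at -0.24 without DKO replicate 3). The counting is not stated to use strand, so reads of such pairs may not be fully separated.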

How the data were processed

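The authors deposited 1 table of 18050 genes, which per the file headers gives estimated counts and FPKM by sample. Of the deposited estimated counts, 5.80 to 6.54% in each library were fractional. The submitters' processing notes name HISAT and Bowtie2. Their versions, the counting program and the build were not given in the sources used here. A further 9 columns belong to 3 samples outside this comparison and were left out.

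Rounded estimated counts entered the quasi-likelihood test of edgeR 4.0.16 (R 4.3.3), fitted to WT and DKO together. TMM factors and the default filter (minimum count 10) were used, with Benjamini-Hochberg adjustment over the 13094 genes that passed. "Called" means an adjusted p under 0.05. The SE is the absolute log2 fold change over the square root of F, so it restates the test. Levels are means ± SD of the deposited FPKM. Counting intervals and floors cover counting error only. The limma intervals are per gene, without adjustment for the number of genes. Alternatives were DESeq2 1.42.0, limma 3.58.1 on log2(FPKM + 1) and log2(FPKM + 0.1) (genes at 1 FPKM or more in 3 samples, or no filter), RLE factors, totals without the 100 most abundant genes, no count filter, a replicate block, a threshold of 0.01 and each sample left out. The fits were tested on simulated data. There DESeq2 made a larger share of false calls than edgeR or limma, and all 3 missed most changes of 1.5-fold. The simulation changed far fewer genes than were called here and held no library apart like DKO replicate 3. Its shares thus cannot be carried over to these data. Members and lists were chosen with earlier results of these data known. All members are named. Each neighbouring list is represented by up to 4 genes with the smallest adjusted p, besides LBR, NR1H2, NR1H3, MBTPS1 and MBTPS2. CH25H, CYP27A1, CYP46A1, GRAMD1A, FADS1, FASN, ACACA, ACSS2, TCP1, RMC1 and VPS51 were added after their values were seen. A planned promoter motif search was not run, and other pathway genes were not analysed here; some list members are not reported. Figures were drawn with matplotlib 3.10.9 (Python 3.11.15).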

Additional observations from a re-analysis of the deposited data

How the results depend on the processing

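The count of sterol genes lower in DKO, 13 with all samples, ranged from 8 to 20 when a sample was left out (8 without WT replicate 1 or 3, 20 without DKO replicate 3), and that of higher genes, 3, ranged from 1 to 5. The count over all genes, 5959, ranged from 4266 to 9880 in these fits. At an adjusted p below 0.01, 8 sterol genes were lower, 1 was higher and 3902 of all genes were called. Other normalizations, filters and tests gave 13 to 15 lower and 3 higher sterol genes. With the replicate number as a block (replicate block), 11 were lower and 1 higher, and 4485 of all genes were called. The block fit called MSMO1 (-1.31, edgeR adjusted p = 0.0452) and left MVD uncalled (0.0784). The labels give the replicate numbers no meaning. Deviations of same-numbered samples correlated at 0.022, -0.28 and -0.29. Of the 3 WT samples, 0 correlated best with the DKO sample of the same number. With 3 samples a group and DKO replicate 3 apart from the others, these correlations cannot settle whether the numbers pair samples. No sterol gene called in either fit changed sign under these alternatives. ABCG1 lies below the limma filter, so the 2 filtered limma fits give no value for it. Counts limit ABCG1, NR1H3 and GRAMD1C most. VPS51, which overlaps TM7SF2, had a log2 fold change of 0.00 with all samples and a called -0.24 without DKO replicate 3; without any other single sample it reached at most 0.10.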
